A study of Homo sapiens with 4 samples.

Results

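The genes described here are 10 members and close partners of the MYC network of transcription factors. They are MYC, MYCL, MAX, MXD1, MXD3, MXD4, MXI1, MNT, MLX and MYCBP, picked by gene symbol from the 33538 genes of the count matrices, and all 10 were found. Their RNA was measured in single cells of 4 libraries of LNCaP, a human prostate cancer cell line, and of enzalutamide-resistant lines derived from it. LNCaP cells received the vehicle DMSO (0.1%) for 48 h, and LNCaP-ENZ48 cells received 10 µM enzalutamide, an androgen receptor inhibitor, for 48 h. RES-A and RES-B are LNCaP sublines that had become resistant under long exposure to drugs of this kind and were kept in 10 µM enzalutamide. RES-A came from passaging in rising doses of enzalutamide and RES-B from continuous exposure to the related compound RD-162. Each group is 1 library of sorted living cells, each resistant state is 1 line, and the DMSO control stands for LNCaP only. There is therefore no replicate check, no test was run, and every interval below covers counting error only.

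MYC proteins act as pairs. MYC and its relative MYCL bind DNA only as dimers with MAX, and these dimers activate genes of ribosome assembly, metabolism and cell growth. The MXD proteins (MXD1, MXD3, MXD4 and MXI1) and MNT compete for the same partner and the same sites, and recruit SIN3 and histone deacetylases to repress them. MLX forms a parallel branch, in which it pairs with the glucose-sensing factors MLXIP and MLXIPL as well as with some MXD proteins, and MYCBP is a small protein that binds the amino-terminal part of MYC. MYC is a driver of prostate cancer, where its locus is often gained.

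The shared DNA site of these dimers is the E-box CACGTG, which reads the same on both strands. RefSeq promoters (GRCh38.p14, from 250 bases before to 50 bases after the RefSeq start) were at hand for 9 of the 10 genes, with no entry for MYC. The 6 letters were present in 3 of the 9, those of MXD4, MNT and MLX, whereas 7.43% of 27305 promoters of the same length held them. The 3 sites are shown with the bases around them because they place a site of the network in front of genes of the network itself; the E-box is in capitals.
MXD4: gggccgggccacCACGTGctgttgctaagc
MNT: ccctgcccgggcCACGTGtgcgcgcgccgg
MLX: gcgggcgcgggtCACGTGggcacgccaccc
The MXD4 window lies at chr4:2262330-2262359 on the minus strand, with the first base of the E-box at -238 from the start. The MNT window lies at chr17:2401236-2401265 on the minus strand, with its E-box at -193. The MLX window lies at chr17:42567038-42567067 on the plus strand, with its E-box at -50. Among genes known to be activated by MYC, 10 of the 21 with a promoter entry held the same 6 letters, as did 20 of 46 genes of the MYC targets V2 list and 22 of 165 of the V1 list. A match of 6 letters describes the sequence and is not a binding measurement.

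After the study's cell filters, 1782 cells were kept in LNCaP, 4315 after the 48 h treatment, 4569 of line RES-A and 4061 of line RES-B, holding between 50208831 and 60838227 UMIs (unique molecular identifiers, each 1 captured RNA molecule) per library. LNCaP stood apart in depth, with a median of 27080 UMIs per cell against 12138 to 13676 in the others. Its filter ran from 16000 to 50000 UMIs and those of the others from 5000 to 25000. The part of these limits in the depth difference was not tested. Pairs of libraries shared 2 to 12 cell barcodes, at most 0.254% of the smaller library. All 8 luminal prostate markers were at 5 CPM (UMIs of a gene per 1000000 UMIs of the library) or more in every library except RES-A, where 6 were. The 2 missing there were the kallikreins KLK3 and KLK2, at 0.0349 and 0.0872 CPM in RES-A against 718 and 319 CPM in LNCaP. No marker of basal, fibroblast, immune or endothelial cells reached 5 CPM in any library, and no such list summed to more than 3.74 CPM.

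MYC (chromosome 8) encodes the central activator. Its level was 186 CPM (95% Poisson interval 183 to 190) in LNCaP, 115 (112 to 117) in LNCaP-ENZ48, 139 (136 to 142) in RES-A and 130 (127 to 133) in RES-B. LNCaP was highest and LNCaP-ENZ48 lowest, and the 2 resistant lines lay between them and closer to the treated cells. No interval overlapped another. Both resistant lines, although kept in the drug, had more MYC than the cells treated for 48 h, with log2 ratios of 0.28 (0.24 to 0.33) in RES-A and 0.18 (0.14 to 0.23) in RES-B. TMM scaling, which centres the bulk of genes, kept the first at 0.13 and took the second to -0.018, so the order of RES-B and LNCaP-ENZ48 depends on the scaling.

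MYCL (chr1:39895428-39902256, minus strand, GENCODE 44 on GRCh38) encodes the second activator and was a rare transcript. It stood at 5.40 CPM (4.77 to 6.08) in LNCaP, 3.11 (2.68 to 3.58) in LNCaP-ENZ48, 4.38 (3.85 to 4.95) in RES-A and 3.50 (3.01 to 4.04) in RES-B. The order of the libraries was that of MYC, but RES-B and LNCaP-ENZ48 could not be separated (log2 ratio 0.17, interval -0.13 to 0.47). The counts behind these levels were 184 to 271 UMIs per library.

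MAX (chr14:65006174-65102695, minus strand), the partner shared by MYC, MYCL, the MXD proteins and MNT, had another order. Its level was 22.5 CPM (21.3 to 23.9) in LNCaP, 24.3 (23.1 to 25.6) in LNCaP-ENZ48, 33.6 (32.1 to 35.1) in RES-A and 37.7 (36.1 to 39.4) in RES-B. MAX was higher in both resistant lines than in either LNCaP library, by a log2 ratio of 0.58 (0.47 to 0.68) in RES-A and 0.74 (0.64 to 0.85) in RES-B against LNCaP. With libraries scaled by their totals, the 48 h treatment gave no difference beyond counting error (0.11, interval -0.0039 to 0.22). TMM scaling took this ratio to 0.20, so the reading depends on the scaling. The higher MAX level was present in each cell cycle phase, at 0.61, 0.65 and 0.45 in G1, S and G2/M cells of RES-A and at 0.72, 0.99 and 0.71 in those of RES-B.

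**Figure D1:**
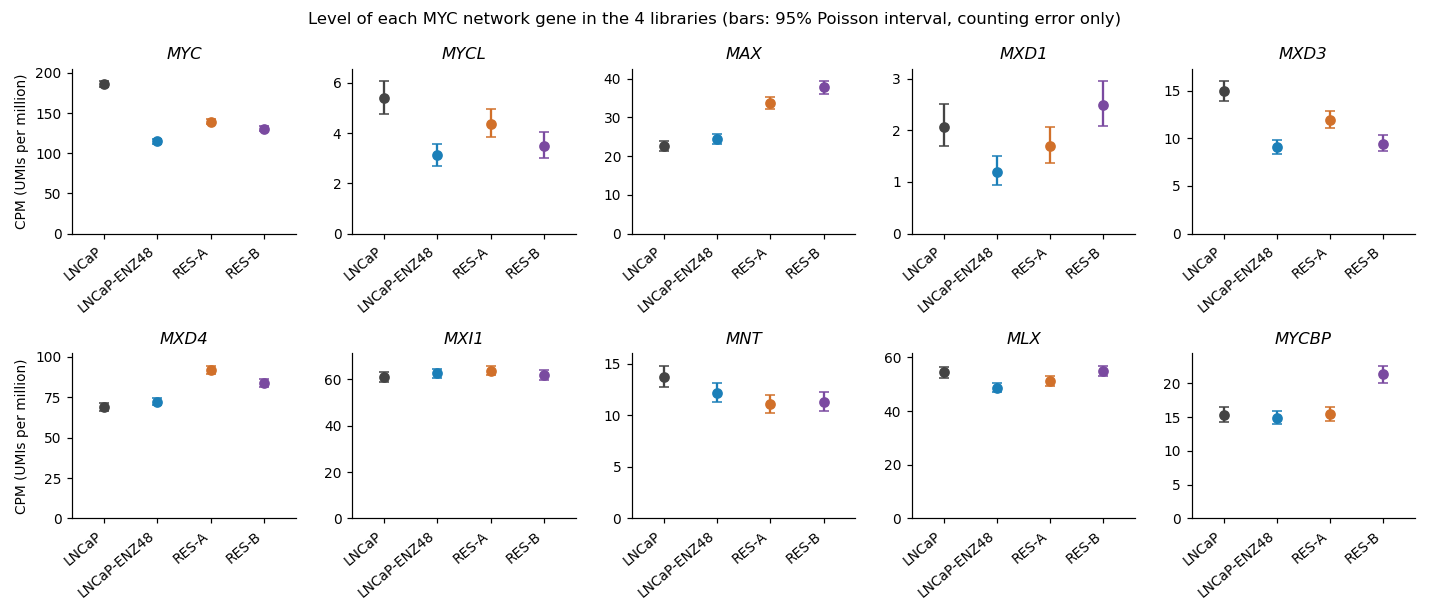
Level of the 10 genes in CPM (vertical axes, each from 0) in the 4 libraries (horizontal axes); points are library sums and bars 95% Poisson intervals for counting error only. MYC, MYCL and MXD3 are highest in LNCaP (MXD3 not in cells of 16000 to 25000 UMIs), MAX is higher in RES-A and RES-B than in both LNCaP libraries, and MXI1 lies between 60.8 and 63.8 CPM in all 4.

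The 5 repressors did not share a pattern. MXD3 (chr5:177301461-177312757, minus strand), the family member tied to S phase, stood at 15 CPM (13.9 to 16.1) in LNCaP, 9.06 (8.32 to 9.85) in LNCaP-ENZ48, 11.9 (11.1 to 12.9) in RES-A and 9.45 (8.64 to 10.3) in RES-B. LNCaP was highest, and LNCaP-ENZ48 and RES-B could not be separated. In cells of the depth range shared by all libraries LNCaP was the lowest instead, as described with the cell cycle. MXD3 shares 926 exon bases on the same strand with RAB24, and reads that fit both genes were not counted. RAB24 itself was at 3.24 to 4.14 CPM.

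MXD4 (chr4:2247432-2262109, minus strand), a repressor of resting and differentiating cells, went the other way. It was at 68.9 CPM (66.6 to 71.2) in LNCaP, 72.1 (70.0 to 74.3) in LNCaP-ENZ48, 92.0 (89.5 to 94.5) in RES-A and 83.9 (81.4 to 86.4) in RES-B. With libraries scaled by their totals, both resistant lines were above both LNCaP libraries, with log2 ratios against LNCaP of 0.42 for RES-A and 0.28 for RES-B. Against LNCaP-ENZ48 the RES-B ratio was 0.22 (0.16 to 0.28). TMM scaling moved the median of all genes by -0.20 in that comparison, so the separation of RES-B from LNCaP-ENZ48 depends on the scaling.

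MXI1 (chr10:110207605-110287365, plus strand), also a repressor, was the steadiest member when libraries were scaled by their totals. Its level was 60.8 CPM in LNCaP and 62.6 in LNCaP-ENZ48, with RES-A at 63.8 and RES-B at 61.8. The highest level was 1.05 times the lowest, and no neighbours in the order of the libraries were separated by their intervals. The interval of the RES-A to LNCaP log2 ratio, the widest gap, ran from -0.0014 to 0.14.

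MNT (chr17:2384073-2401104, minus strand), the repressor that most cells carry whether or not they divide, was at 13.8 CPM (12.8 to 14.8) in LNCaP, 12.2 (11.3 to 13.1) in LNCaP-ENZ48, 11.1 (10.3 to 12) in RES-A and 11.3 (10.4 to 12.2) in RES-B. LNCaP was highest, and the other 3 were not separated from their neighbours. MXD1 (chr2:69897688-69942945, plus strand), a repressor induced during differentiation, was the rarest member, at 2.07 CPM (1.69 to 2.51) in LNCaP, 1.20 (0.941 to 1.51) in LNCaP-ENZ48, 1.69 (1.37 to 2.06) in RES-A and 2.49 (2.08 to 2.96) in RES-B. RES-B had 2.08 times the MXD1 level of LNCaP-ENZ48 (log2 ratio 1.05, interval 0.63 to 1.49), which was the widest relative range of the 10 genes, on 73 to 131 UMIs per library. MXD1 shares 237 exon bases on the same strand with SNRNP27, and reads that fit both genes were not counted. SNRNP27 itself was at 17.7 to 19.9 CPM.

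MLX (chr17:42567072-42573239, plus strand) stood at 54.4 CPM (52.4 to 56.5) in LNCaP, 48.7 (46.9 to 50.5) in LNCaP-ENZ48, 51.2 (49.4 to 53.1) in RES-A and 54.9 (52.9 to 56.9) in RES-B. RES-B and LNCaP could not be separated. MYCBP (chr1:38862493-38873368, minus strand) was at 15.3 CPM (14.3 to 16.4) in LNCaP, 14.9 (14.0 to 15.9) in LNCaP-ENZ48, 15.5 (14.5 to 16.5) in RES-A and 21.3 (20.1 to 22.6) in RES-B. RES-B alone was above the other 3 libraries, by a log2 ratio of 0.48 (0.35 to 0.61) against LNCaP and 0.46 (0.33 to 0.59) against RES-A. MYCBP shares 466 exon bases on the same strand with AL139260.3, which was at 0.0174 to 0.0598 CPM, and reads that fit both were not counted.

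A log2 ratio of at least 0.5 in either direction, in genes at 5 CPM or more in 1 of both libraries, was taken as past the fold. MXD1 was below this level throughout, which left 9 members in the comparisons against LNCaP. MYCL met the minimum in LNCaP alone, the library where it was highest, so it could enter these counts only as lower, and without it the lower members in LNCaP-ENZ48 and in RES-B would be 2 of 8 each. All 3 comparisons share the LNCaP library. In LNCaP-ENZ48, 3 of the 9 were lower (MYC, MYCL and MXD3, at -0.70, -0.80 and -0.72) against 6.15% of 9568 genes, and 0 were higher against 1.75%. In RES-A, MAX alone was higher, 1 of 9 against 17% of 9989 genes, and 0 were lower against 16.7%. In RES-B, MAX was higher, 1 of 9 against 20.6% of 10001 genes, and MYC, MYCL and MXD3 were lower (-0.52, -0.62 and -0.66), 3 of 9 against 12.1%. In cells of 16000 to 25000 UMIs the MXD3 ratio had the other sign in all 3 comparisons. The median log2 ratio of the 9 was -0.16, -0.087 and 0.013 in the 3 comparisons, against -0.085, 0.019 and 0.11 over all genes at that level.

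**Figure D2:**
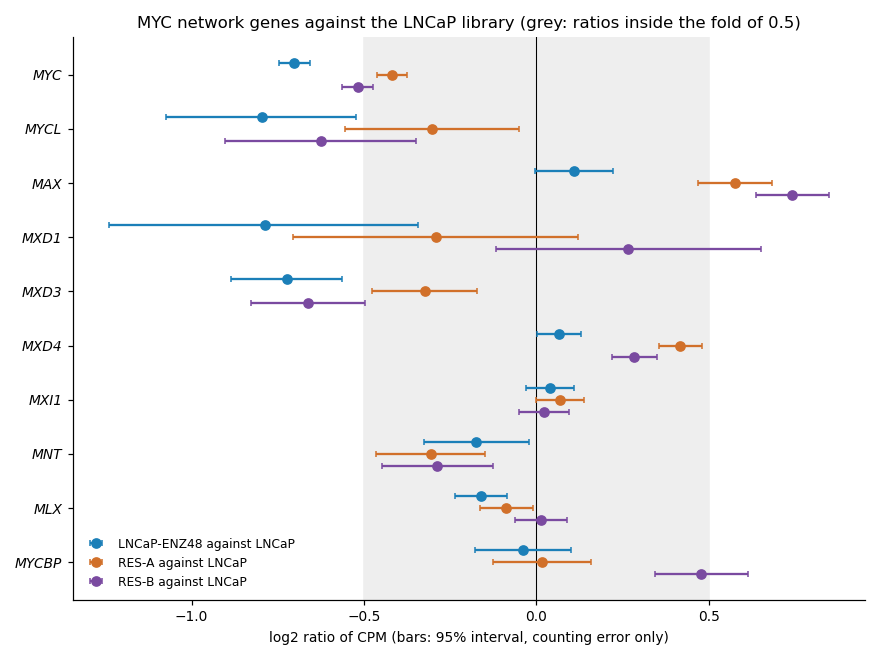
Log2 ratio of CPM (horizontal axis) of the 10 genes in LNCaP-ENZ48, RES-A and RES-B against LNCaP; bars are 95% intervals for counting error only and the grey band holds ratios inside 0.5. MYC, MYCL and MXD3 lie left of the band in LNCaP-ENZ48 and RES-B (MXD3 with the other sign in cells of 16000 to 25000 UMIs), and MAX lies right of it in RES-A and RES-B. MXD1 lies left of it in LNCaP-ENZ48 but is below 5 CPM in every library.

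Between RES-B and RES-A, 0 of 8 members at the level minimum were past the fold in either direction, against 17.5% of 9958 genes higher and 9.62% lower in RES-B. MYCBP (0.46) came nearest among the 8, and MXD1, below the minimum, was at 0.56. Against LNCaP-ENZ48, RES-A had 0 of 8 members past the fold, with 21.2% of genes higher and 12.4% lower. RES-B had 2 of 8 higher than LNCaP-ENZ48, MAX (0.63) and MYCBP (0.52), against 26.4% of genes, and 0 lower against 9.23%; under TMM or median-of-ratios scaling neither passed the fold.

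The balance of activators and repressors was read from the UMIs of the genes whose products compete for MAX. A 3′ library counts a molecule once whatever its length, but genes can differ in capture, so the share is compared between libraries and not read as a ratio of proteins. MYC and MYCL held 54.4% (exact binomial interval 53.7% to 55.2%) of these UMIs in LNCaP, 42.8% (42.1% to 43.6%) in LNCaP-ENZ48, 44.3% (43.6% to 45.0%) in RES-A and 44.2% (43.4% to 45.0%) in RES-B. Over all kept cells, LNCaP was the only library with more activator than repressor UMIs. Its G2/M cells did not share this. They held 1103 MYC and 68 MYCL UMIs against 628 of MXD4, 596 of MXD3 and 506 of MXI1. The summed repressor level was 161 CPM in LNCaP and 157 in LNCaP-ENZ48, with RES-A at 181 and RES-B at 169. The activator sum had the larger span, at 192, 118, 144 and 134 CPM in the same order. For each MAX UMI there were 15.6 UMIs of the partners counted here in LNCaP and 11.3 in LNCaP-ENZ48, with RES-A at 9.65 and RES-B at 8.02.

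The cell cycle divided the members. Cells were called G1, S or G2/M from phase gene lists that hold none of the 10 genes, and G1 cells made up 72.9% of LNCaP and 83.0% of LNCaP-ENZ48 cells, compared with 68.4% for RES-A and 73.9% for RES-B. MXD3 followed the phase most. In G2/M cells it was at 59.2 CPM in LNCaP and 51.2 in LNCaP-ENZ48, with RES-A at 39.5 and RES-B at 33.2, and in G1 cells at 2.38, 1.69, 2.71 and 2.14 CPM in the same order. The log2 ratio of G2/M to G1 was 4.64, 4.92, 3.86 and 3.96, while RAB24, which overlaps MXD3, had 3.65 CPM in G1 and 3.47 in G2/M cells of LNCaP.

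Weighting by phase moved the MXD3 ratio of LNCaP-ENZ48 more than that of RES-B. With every library weighted to the phase mix of LNCaP, the LNCaP-ENZ48 log2 ratio went from -0.72 to -0.13, a value no longer past the fold, and the share of G2/M cells there was 11.7% against 18.5% in LNCaP. The RES-B ratio stayed at -0.64 under the same weighting. Within G2/M cells alone the ratio was -0.83 (-1.03 to -0.64) in RES-B, -0.58 (-0.76 to -0.40) in RES-A and -0.21 (-0.40 to -0.019) in LNCaP-ENZ48. In cells of 16000 to 25000 UMIs, the range that all 4 filters share, the sign of the MXD3 ratio turned, to 0.70 in LNCaP-ENZ48 and 0.97 in RES-B, and RES-A reached 1.26. G2/M cells made up 15.6% of those cells in LNCaP and 16.3% in LNCaP-ENZ48, with RES-A at 33.7% and RES-B at 31.5%, and MXD3 in the G2/M cells of that range was 36.2, 61.4, 46.5 and 38.0 CPM. The part of cell size and of phase in the MXD3 difference was not tested.

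MYC was highest in G1 cells in every library, and MXD3 was lowest in those cells. The lowest MYC level was in G2/M cells, except in LNCaP-ENZ48, where it was in S cells (96.0 CPM, 86.1 to 107). The MYC differences from LNCaP were largest in G1 and smallest in G2/M cells. In G1 cells MYC was at 212 CPM in LNCaP (207 to 217), 117 in LNCaP-ENZ48 (114 to 121), 149 in RES-A (146 to 153) and 140 in RES-B (136 to 144). In G2/M cells it was at 109 CPM in LNCaP (103 to 116), 105 in LNCaP-ENZ48 (97.6 to 112), 115 in RES-A (109 to 122) and 98.7 in RES-B (92.7 to 105). LNCaP cells thus had a MYC level in G2/M that lay among those of the other libraries, and a G1 level above all of them.

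Put as log2 ratios against LNCaP, MYC was at -0.85 (-0.90 to -0.80) in G1 cells of LNCaP-ENZ48 and at -0.063 (-0.20 to 0.070) in its G2/M cells. For RES-A the ratios were -0.50 (-0.55 to -0.45) and 0.075 (-0.042 to 0.19), and for RES-B -0.60 (-0.65 to -0.55) and -0.15 (-0.27 to -0.024). In each pair the intervals of G1 and G2/M did not overlap, and S cells lay at -0.73, -0.32 and -0.36. LNCaP was again highest in G1 but not in G2/M among the cells of 16000 to 25000 UMIs. There the G1 cells had 210, 122, 135 and 138 CPM of MYC, in the same order of libraries, and the G2/M cells 114, 103, 124 and 96.5 CPM.

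Other members leaned towards G1 too. MXD4 was lower in S and in G2/M than in G1 cells in all 4 libraries, with G2/M to G1 log2 ratios of -0.23 in LNCaP and -0.24 in LNCaP-ENZ48, with RES-A at -0.64 and RES-B at -0.76. Its higher level in the resistant lines was largest in G1 cells, at 0.52 (0.45 to 0.59) in RES-A and 0.37 (0.30 to 0.45) in RES-B against LNCaP, and within counting error in G2/M cells, at 0.11 (-0.048 to 0.26) and -0.16 (-0.33 to 0.0072). MXI1 was lower in G2/M than in G1 cells by a similar amount in each library, at -0.39, -0.45, -0.42 and -0.39. MNT in G2/M cells was at -0.85 (-1.20 to -0.52) against G1 in LNCaP and at -0.27 (-0.58 to 0.03) in RES-A.

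MYCBP leaned towards dividing cells instead. Its G2/M to G1 log2 ratio was 0.64 (0.38 to 0.89) in LNCaP-ENZ48, 0.67 (0.44 to 0.90) in RES-A and 0.41 (0.20 to 0.62) in RES-B, and 0.14 (-0.12 to 0.40) in LNCaP. The higher MYCBP of RES-B was present in G1 (0.37), S (0.73) and G2/M cells (0.64) against LNCaP. MLX in G2/M cells stayed within counting error of its G1 level in all 4 libraries, and MYCL and MXD1 had too few UMIs in S and G2/M cells, from 2 to 68 per library and phase, to separate most phases.

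**Figure D3:**
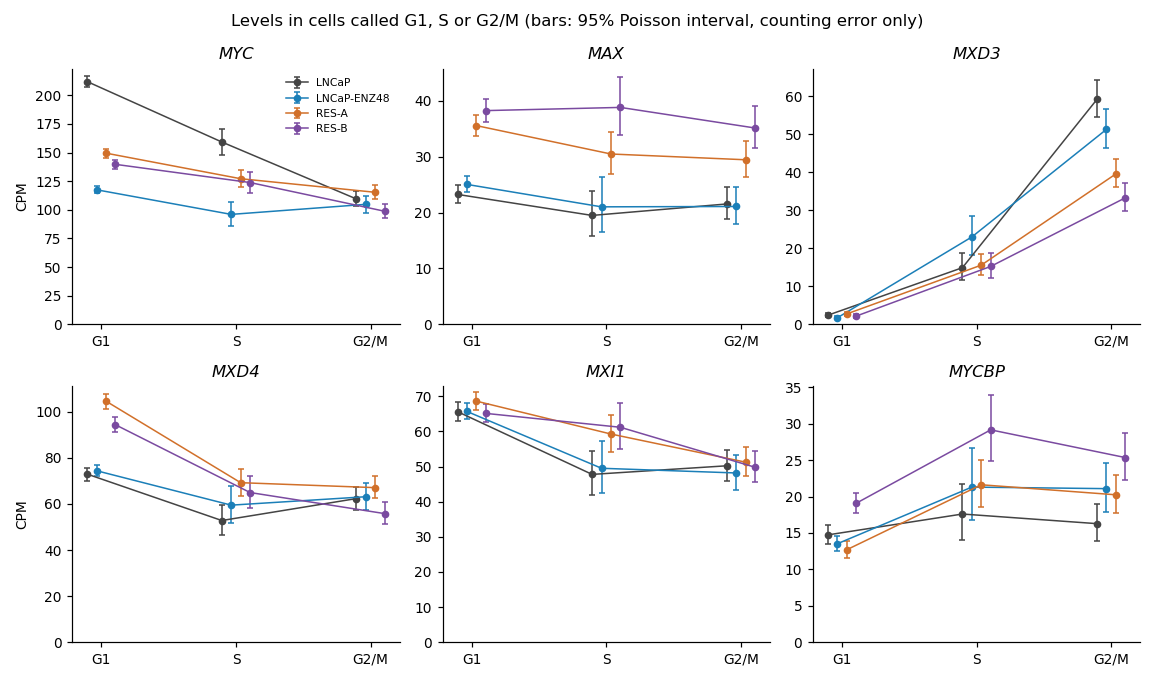
Level in CPM (vertical axes, each from 0) of 6 genes in cells called G1, S and G2/M (horizontal axes) in the 4 libraries; bars are 95% Poisson intervals for counting error only. MXD3 climbs from 1.69 to 2.71 CPM in G1 to 33.2 to 59.2 CPM in G2/M, and the MYC lines are apart in G1, where LNCaP is at 212 CPM, and close in G2/M, at 98.7 to 115 CPM.

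In single cells MYC was the member detected most often. With every cell thinned to 5000 UMIs, MYC was found in 53.9% of LNCaP cells (exact binomial interval 51.6% to 56.3%), 39.5% (38.0% to 41.0%) of LNCaP-ENZ48, 47.2% (45.7% to 48.6%) of RES-A and 43.5% (42.0% to 45.0%) of RES-B cells. The unthinned shares were 90.6%, 67.7%, 75.6% and 70.9%, at the unequal depths given above. No cell type that should lack MYC was present, so the share that free RNA adds could not be measured. The thinned shares had the order of the levels.

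LNCaP also held more cells with several MYC molecules. At 5000 UMIs a cell, 25.0% of LNCaP cells had 2 or more MYC UMIs, against 12.3% in LNCaP-ENZ48 and about equal shares in RES-A (15.8%) and RES-B (15.9%). Cells with 5 or more were 1.57% of LNCaP (1.05% to 2.26%), 0.116% of LNCaP-ENZ48 (0.0376% to 0.270%), 0.263% of RES-A and 0.295% of RES-B. The variance of MYC UMIs per cell over their mean, which is 1 for pure counting noise, was 1.49 in LNCaP and 1.23 in LNCaP-ENZ48, with RES-A at 1.16 and RES-B at 1.31. Within G1 cells alone it was 1.43, 1.24, 1.14 and 1.28, above 1 in each library.

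**Figure D4:**
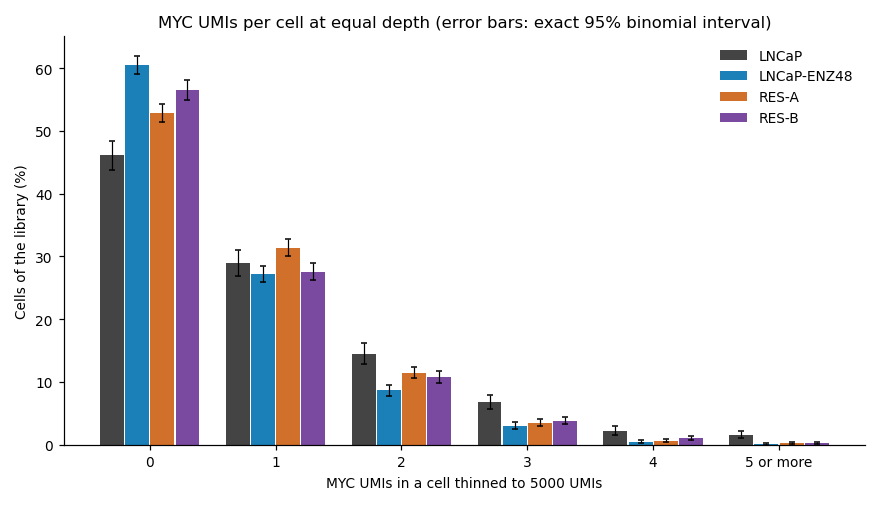
Share of cells (vertical axis, percent) with 0 to 5 or more MYC UMIs (horizontal axis) after thinning each cell to 5000 UMIs, for the 4 libraries; bars are shares and error bars exact 95% binomial intervals. LNCaP has the lowest share of cells at 0 (46.1%) and the highest at 2 or more, and LNCaP-ENZ48 the highest share at 0 (60.5%).

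For the other members the same ratio lay at 1.13 to 1.28 for MXD3, at 1.15 for MXI1 in RES-B (1.16 within G1 cells) and no higher than 1.06 for the rest and for MXI1 elsewhere. At an equal relative spread this ratio lies nearer 1 where the mean is lower, so it does not rank genes or libraries by spread. MYC averaged 0.563 to 0.958 UMIs per thinned cell, and the other members at most 0.462 (MXD4 in RES-A). At 5000 UMIs a cell MXD4 was found in 29.9%, 30.4%, 35.9% and 33.9% of cells, MXI1 in 26.3% to 27.4% and MLX in 21.7% to 24.2%. MAX was found in 10.0% of LNCaP and 11.4% of LNCaP-ENZ48 cells, and in 14.9% (RES-A) and 17.2% (RES-B) of the resistant cells, which had the order of its levels. MYCBP and MNT were found in 5.20% to 9.48% of cells, MXD3 in 3.41% to 5.95%, MYCL in 1.55% to 2.53% and MXD1 in 0.510% to 1.11%. The unthinned shares of MAX were 46.2%, 28.9%, 34.2% and 37.4%, where the deeper LNCaP cells came first although their MAX level was lowest.

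The wider network was read from lists of its other proteins. Their counts past the fold stand against the shares of all genes given above, which were 1.75% higher and 6.15% lower in LNCaP-ENZ48, 17% and 16.7% in RES-A, and 20.6% and 12.1% in RES-B. Of 7 other factors of the extended network, 5 were at the level minimum, and MYCN and MLXIPL were below it. MLXIP, the partner of MLX also called MondoA, was at 29.6 CPM in LNCaP and 30.2 in LNCaP-ENZ48, with RES-A at 27.9 and RES-B at 70.4. RES-B stood apart by a log2 ratio of 1.25 (1.16 to 1.34) against LNCaP, the only factor of this list past the fold against LNCaP in any library. TXNIP, the glucose-responsive target of MLX and MLXIP, was at 474, 455, 193 and 441 CPM, lowest in RES-A (-1.30, interval -1.33 to -1.27 against LNCaP) and at -0.10 (-0.13 to -0.08) in RES-B, the library with the most MLXIP. ARRDC4, the other target listed, was at 6.59 to 7.83 CPM in the 4 libraries.

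Of 15 MYC coactivators, all at the level minimum, 0 were past the fold in LNCaP-ENZ48 or RES-A, and HCFC1 (0.52) and PAF1 (0.54) were higher in RES-B. HCFC1 is a coregulator that binds MYC and PAF1 belongs to an elongation complex. The list's median was -0.16, 0.26 and 0.17 in the 3 comparisons, against -0.085, 0.019 and 0.11 over all genes, and its 2 of 15 in RES-B lay below the share of all genes. Of 11 corepressors of the MXD proteins and MNT, 0 were higher and 1 lower in LNCaP-ENZ48, 2 and 2 in RES-A, and 3 and 1 in RES-B, shares near those of all genes in both resistant lines. SAP18, a subunit of the SIN3 deacetylase complex, was at 182 CPM in LNCaP, with RES-A at 305 (log2 ratio 0.75) and RES-B at 363 (1.00). The deacetylase HDAC2 was at 155 CPM in RES-A against 80.6 in LNCaP (0.94).

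Genes that act on the MYC protein were counted as well, with 14 of 15 symbols found. PPP2R5A, the PP2A subunit that helps to remove an activating phosphate from MYC, was at 16.3 CPM in LNCaP and 20.2 in LNCaP-ENZ48, with RES-A at 34.9 and RES-B at 44.6. Both resistant lines were far above LNCaP, by log2 ratios of 1.10 (0.98 to 1.22) and 1.45 (1.34 to 1.57). FBXO28, a ubiquitin ligase subunit for MYC, was past the fold against LNCaP in RES-A alone (-1.09, interval -1.19 to -0.99). In LNCaP-ENZ48 the genes past the fold were AURKA (-0.78), a mitotic kinase that shields MYC-family proteins from degradation, and SKP2 (-0.55), a ligase subunit of S phase. That library also had fewer G2/M cells (11.7% against 18.5%) and S cells (5.24% against 8.64%) than LNCaP. The part of the phase mix in these ratios was not tested. The list had 2 of 14 lower in LNCaP-ENZ48, 2 higher and 1 lower in RES-A, and 2 higher in RES-B, and the higher counts lay below the shares of all genes in both lines.

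Genes that MYC is known to activate were compared with all genes in the same way. Of 23 such genes, 21 were at the level minimum. In LNCaP-ENZ48, 0 were past the fold, with a median of -0.12 against -0.085 over all genes. In RES-A 5 were higher and 1 lower, with a median of 0.33 against 0.019, and in RES-B 4 were higher and 1 lower, with a median of 0.19 against 0.11. The 4 of 21 in RES-B were no larger a share than that of all genes. NOP56, a nucleolar protein of ribosome assembly, was at 238 CPM in RES-A against 121 in LNCaP (0.97), and the glycolytic enzyme ENO1 at 843 CPM in RES-B against 453 (0.90). FBL, the nucleolar methyltransferase, was lower in RES-B (-0.60), and GNL3, a nucleolar GTPase, lower in RES-A (-0.59). Of the 198 genes of the study's MYC targets V1 list at the level minimum, 0 were higher and 11 lower in LNCaP-ENZ48, 29 and 10 in RES-A, and 21 and 14 in RES-B. In both resistant lines the higher and the lower counts were smaller shares than those of all genes. The lower count in LNCaP-ENZ48 was near the share of all genes. V1 medians were -0.10, 0.16 and 0.095 in LNCaP-ENZ48, RES-A and RES-B, against -0.085, 0.019 and 0.11 over all genes. Of 55 genes of the V2 list, which includes MYC itself, 0 were higher and 8 lower in LNCaP-ENZ48, 12 and 3 in RES-A, and 7 and 3 in RES-B. Its 7 of 55 higher in RES-B were also below the share of all genes, and its 12 of 55 higher in RES-A were above it. The 8 of 55 lower in LNCaP-ENZ48, with MYC itself among them, were a larger share than the 6.15% of all genes. What part the phase mix had in these 8 was not tested. V2 medians were -0.22, 0.26 and 0.036 in the same order of libraries. These genes have many other regulators, and no binding was measured in these libraries.

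The 4 genes listed as repressed by MYC did not share a direction. CDKN1A, the p21 inhibitor of the cell cycle, was at 57.8 CPM in LNCaP and 43.9 in LNCaP-ENZ48, with RES-A at 55.0 and RES-B at 19.2. NDRG1, a stress and differentiation gene, was at 29.7, 31.0, 10.2 and 50.9 CPM. RES-B was lowest for the first and highest for the second, and RES-A was lowest for NDRG1. GADD45A, a stress-induced growth arrest gene, was at 67.8, 46.4, 41.4 and 63.2 CPM, and the fourth gene, CDKN2B, was below the level minimum.

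Over all genes, those whose levels across the 4 libraries lay nearest to MYC were looked up among 5848 genes at 20 CPM or more in 1 library, by the Euclidean distance of centred log2 CPM. The nearest 5 were HIST2H2AC (distance 0.054) and H2AFX (0.12), a histone and a histone variant, TRMT10A (0.12), a tRNA methyltransferase, NUSAP1 (0.13), a spindle protein, and HMGB2 (0.14), a chromatin protein. With 4 libraries this likeness is a description only. The 50 genes around MYC on its chromosome had a median log2 ratio against LNCaP within 0.11 of all protein-coding genes (0.023, 0.036 and 0.11 above it), while MYC lay 0.62, 0.44 and 0.64 below it in LNCaP-ENZ48, RES-A and RES-B. For MAX the surrounding genes lay 0.027 below the median of all genes in RES-A and 0.030 above it in RES-B, against 0.56 and 0.63 above it for MAX.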

How the data were processed

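The authors deposited UMI counts per gene and cell barcode, made with Cell Ranger 3.0.2 (per the file headers and the submitters' processing notes) from 10x 3′ v3 libraries. Reads were counted only where they fitted 1 gene on its own strand. Cells were kept by the limits of the study (detected genes, UMIs and mitochondrial share per library), and doublets were not removed. Counts were summed over the kept cells of each library and given as CPM with exact Poisson intervals; ratios had conditional binomial intervals at 95%. Phases were scored in scanpy 1.11.5 with the lists of Seurat 5.3.0. Cells were thinned to 5000 UMIs for shares. edgeR 4.0.16 gave TMM factors only. Positions came from GENCODE 44 (33113 of 33538 IDs matched), promoters from RefSeq. The interval code was checked on simulated data. The text names the 10 members, the 2 highest and 2 lowest genes of each list per comparison, and the 5 genes nearest to MYC. MYCN, MLXIPL, CDKN2B, RAB24, SNRNP27 and AL139260.3 were named after their values were seen. The members and lists were chosen with earlier results of these data known, and the MYC targets V1 and V2 lists are those of the study. The test over cells used by the authors was left out, since cells are not replicates. Alternatives changed the cell filter, depth, weighting, phase, scaling, doublets, fold and level minimum; the S, G2/M and phase-weighted settings were chosen after seeing the data. The values of 1 gene of the wider lists are not reported here.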

Additional observations from a re-analysis of the deposited data

How the results depend on the processing

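No paired analysis was possible because each group is 1 library and the labels give no replicate numbers. Leaving out a replicate was not possible for the same reason. Of the ratios past the fold against LNCaP, those of MXD3 alone turned in sign: in cells of 16000 to 25000 UMIs its log2 ratio was 0.70 (LNCaP-ENZ48) and 0.97 (RES-B), and in S cells 0.63 and 0.032. The MYC ratio ranged over the settings from -0.85 to -0.063 in LNCaP-ENZ48, -0.60 to 0.075 in RES-A and -0.74 to -0.15 in RES-B, with the G2/M cells at the upper end of each. MAX ranged from 0.45 to 0.65 in RES-A and 0.62 to 0.99 in RES-B.

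Numbers of members past the fold that moved by more than 1.5 times were as follows. In LNCaP-ENZ48 the higher count was 1 in cells of 16000 to 25000 UMIs and in S cells, and the lower count 1 in the former and in G2/M cells. In RES-A the higher count was 2 in cells of 16000 to 25000 UMIs and in G1 cells and 0 in G2/M cells, and the lower count 1 in those of 16000 to 25000 UMIs, G1 and S cells and 2 in G2/M cells. In RES-B the higher count was 3 in cells of 16000 to 25000 UMIs and 2 in S and G2/M cells, and the lower count 1 in G2/M cells. At a log2 ratio of 1 the counts were 0. By smaller steps, the lower count in LNCaP-ENZ48 was 2 in G1 cells, S cells, with the phase mix of LNCaP and at 10 CPM and 4 at 1 CPM, and that in RES-B was 2 in cells of 16000 to 25000 UMIs, thinned cells, G1 cells, S cells and at 10 CPM. For RES-B against RES-A, the higher count was 1 in G1 cells, with the phase mix of LNCaP and at a minimum of 1 CPM. For RES-A against LNCaP-ENZ48, the higher count was 2 in cells of 16000 to 25000 UMIs and 1 in G1 cells, S cells and with the phase mix of LNCaP, and the lower count 1 in S cells. For RES-B against LNCaP-ENZ48, the higher count was 1 with all barcodes, cells of 16000 to 25000 UMIs, thinned cells, each phase alone and the phase mix, and 0 under both scalings; the lower count was 2 in S cells and 1 in G2/M cells and with the phase mix. The cause was not tested. TMM moved the median of all genes by -0.11 in RES-B against LNCaP, and by -0.15 (RES-A) and -0.20 (RES-B) against LNCaP-ENZ48; median-of-ratios scaling moved it by 0.10 in LNCaP-ENZ48.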
